A study of Saccharomyces cerevisiae and Saccharomyces mikatae and Saccharomyces paradoxus with 13 samples.

Results

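The genes of gluconeogenesis and the glyoxylate cycle were followed through the mating response of 3 budding yeasts. The set was chosen by gene name, but with earlier results of these data known, so its counts beside those of all genes are a description. It holds 10 genes of 6132 ORFs on the array: PCK1 and FBP1 of gluconeogenesis, ICL1, MLS1 and MDH2 of the glyoxylate cycle, ADH2 of ethanol oxidation, the carriers JEN1 and SFC1, and the activators ADR1 and CAT8. The measurements came from 13 hybridisations to cDNA arrays of S. cerevisiae, each with 2 colours. Haploid a cells of S. mikatae (derived from IFO 1815, 4 arrays), S. paradoxus (derived from CBS432, 3 arrays) and S. cerevisiae (BY4741 wild type, 3 arrays) were harvested after 60 min with 6 µM alpha factor, which alpha cells secrete as their mating pheromone. Each was set against cells of the same species sampled before the addition. On 3 further arrays, wild type BY4741 a cells and BY4742 alpha cells of S. cerevisiae, mixed on a 0.22 µm filter on YPD agar for 90 min, were set against the same cells kept apart and joined only before RNA extraction. All cultures had grown to log phase in YPD, a rich medium with glucose, at 30 °C. The reference of the alpha factor arrays was taken earlier than the treated cells, so pheromone and the time in culture cannot be told apart.

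Yeast cells that run out of glucose make sugar from ethanol, acetate or lactate. The glyoxylate cycle, through isocitrate lyase and malate synthase, builds C4 acids from acetyl units, and phosphoenolpyruvate carboxykinase and fructose-1,6-bisphosphatase carry them back up to hexose. While glucose is present these genes are strongly repressed, and they are switched on through the Snf1 kinase and the activators Cat8 and Adr1 when it is used up. In cells growing on YPD their transcripts are therefore normally scarce.

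All values are the deposited ratios of the treated or mated sample over its own reference, read as log2 since the labels do not state the log base, after each array was centred on its median. A value of 1 is a doubling and −1 a halving, and no absolute level was given. One label puts the treated RNA in Cy5 and another in Cy3, so the direction given here is the likely one only, and with the sign turned every fall becomes a rise. It was read from the channel order, and of 8 pheromone-induced genes listed to check it, 7 were called higher in S. mikatae, 8 in S. paradoxus, 5 of 5 measured in mating and 8 in S. cerevisiae. The exception was AGA1, at 0.17 ± 0.37 in S. mikatae (SD, n = 4). Array pairs correlated at 0.74 to 0.90 over all genes within a group and at 0.37 to 0.70 between groups. A ratio shows the change of a marker of mating type and not its level, so cell identity could not be checked directly. Of a cell markers 3 of 3 tested rose in S. mikatae, 6 of 6 in S. paradoxus, 5 of 5 in mating and 6 of 6 in S. cerevisiae. Of alpha cell markers 1 of 3 rose in S. mikatae, 1 of 3 in S. paradoxus, 3 of 4 in mating and 2 of 3 in S. cerevisiae. Their part in the results was not tested.

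Not every gene of the set gave a value. Of the 10 genes, 6 had at least 2 measured arrays in S. mikatae, 8 in S. paradoxus, 7 in mating and 8 in S. cerevisiae, the minimum for a test. MDH2, the cytosolic malate dehydrogenase, was measured on 1 array of the 13, at −0.29 on S. cerevisiae replicate 1. FBP1 was measured on 2 arrays, both of S. paradoxus. ADH2 had no value in S. mikatae or S. paradoxus, and CAT8 none in mating. Over the whole array 26.6% of probes had no value in S. mikatae, 20.8% in S. paradoxus, 37.2% in mating and 2.15% in S. cerevisiae alpha factor. The probes are S. cerevisiae sequences and the mismatch to RNA of the other species was not tested.

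In S. paradoxus a cells given alpha factor, 6 of the 8 genes tested fell: PCK1, FBP1, ICL1, MLS1, SFC1 and ADR1. JEN1 and CAT8 were not called. Over all genes limma called 24.6% lower in that response after Benjamini-Hochberg adjustment, at an adjusted p under 0.05. The median of the 8 genes was −0.51, against −0.0026 for all 4748 genes tested. In the other groups the set moved little. In S. mikatae 1 of 6 genes fell, ADR1, where 24.7% of all genes were called lower. In mating 1 of 7 fell, JEN1, where 20.2% of all genes were called lower. In S. cerevisiae given alpha factor none of 8 was called in either direction, where 33.6% of all genes were, and ADH2 alone had an unadjusted p under 0.05 (adjusted p = 0.101 by limma). None of the set was called higher in any of the 4 responses, where limma called 23.3% of all genes higher in S. mikatae, 23.9% in S. paradoxus, 19.4% in mating and 16.3% in S. cerevisiae. By unadjusted p, ICL1 in mating was the only addition besides ADH2.

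**Figure D1:**
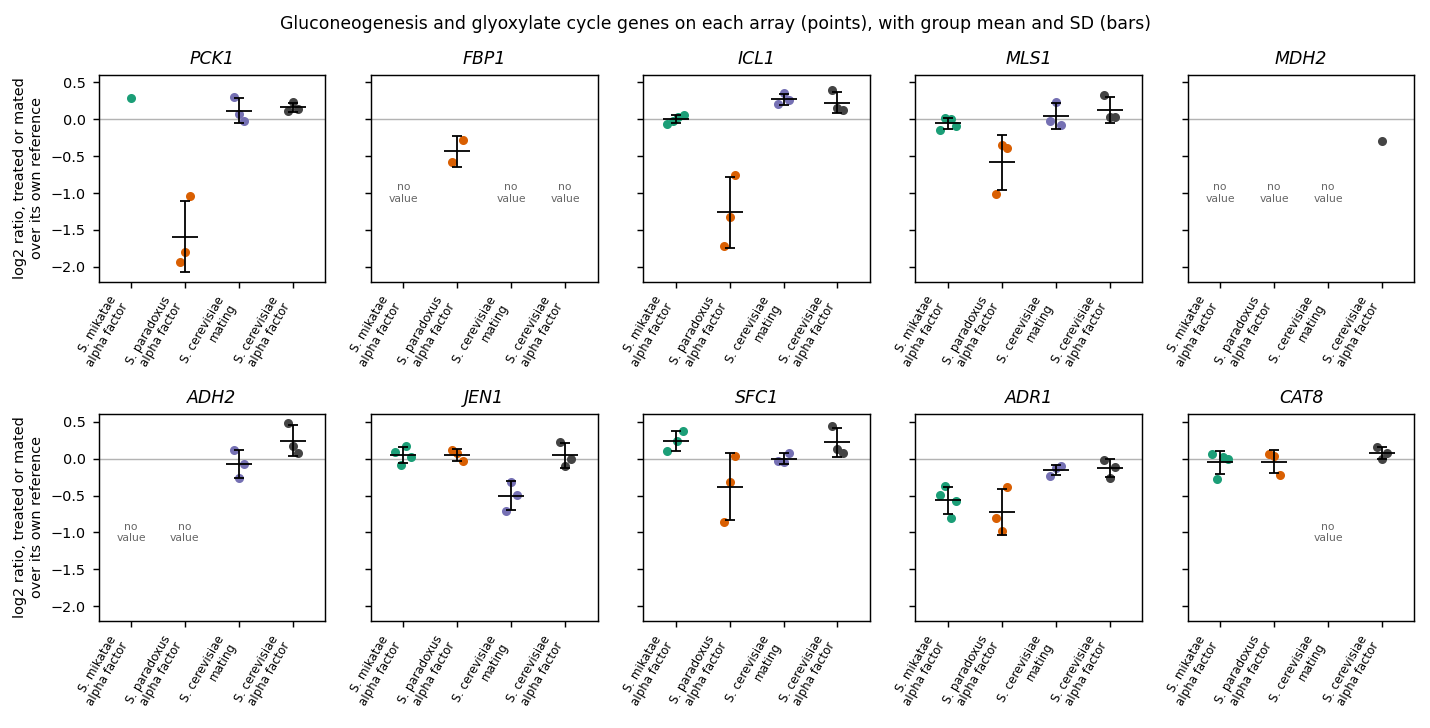
Log2 ratio of each gene (vertical axis, treated or mated over its own reference) on every array, by group. Points are arrays, bars the group mean and SD where 2 or more arrays gave a value. The S. paradoxus arrays lie below those of every other group for PCK1 and ICL1, with means of −1.59 and −1.26, and the mating arrays lie below the others for JEN1.

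PCK1 (YKR097W) encodes phosphoenolpyruvate carboxykinase, which starts the path from oxaloacetate to sugar. Its log2 ratio was −1.93, −1.80 and −1.04 on the 3 S. paradoxus arrays. It was 0.30, 0.07 and −0.03 on the mating arrays, and 0.11, 0.24 and 0.14 on the S. cerevisiae alpha factor arrays. On the 1 S. mikatae array that measured it, replicate 2, the value was 0.28, so S. mikatae could not be tested. All S. paradoxus arrays were low and none overlapped with another group. The S. paradoxus mean of −1.59 ± 0.48 (SD, n = 3) is a 3.02-fold fall (95% interval −1.91 to −1.28, adjusted p = 9.26e-06 by limma) and ranked 19 from the lowest of 4748 genes tested. The S. cerevisiae mean was 0.16 ± 0.066 (adjusted p = 0.414) and the mating mean 0.11 ± 0.17 (adjusted p = 0.551).

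FBP1 (YLR377C) encodes fructose-1,6-bisphosphatase, which works against phosphofructokinase near the end of the path. It stood at −0.58 on S. paradoxus replicate 1 and −0.28 on replicate 3. Both arrays were low, and the mean of −0.43 ± 0.21 (n = 2) was called by limma (adjusted p = 0.0284). No array of another group measured FBP1, so its fall was compared with nothing, and the test leans on the spread of other genes because 2 arrays leave almost no error estimate.

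Next were the enzymes of the glyoxylate cycle. ICL1 (YER065C) encodes isocitrate lyase, the entry step that splits isocitrate into succinate and glyoxylate. Its log2 ratio was −0.067, −0.020, 0.025 and 0.065 on the 4 S. mikatae arrays, and −1.71, −1.32 and −0.76 on those of S. paradoxus. Mating gave 0.21, 0.36 and 0.26, and S. cerevisiae alpha factor 0.39, 0.16 and 0.13. The groups formed 3 separate ranges, with S. paradoxus lowest, S. mikatae close to 0, and both S. cerevisiae groups above 0 and overlapping. In S. paradoxus ICL1 fell by 1.26 ± 0.48 (n = 3; 2.40-fold; adjusted p = 4.03e-06 by limma), rank 47 from the lowest of 4748 genes. In S. mikatae the mean was 0.00085 ± 0.057 (n = 4; 95% interval −0.23 to 0.23), in mating 0.27 ± 0.075 (adjusted p = 0.0962) and in S. cerevisiae 0.23 ± 0.15 (adjusted p = 0.179).

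MLS1 (YNL117W) encodes malate synthase, the partner step that joins glyoxylate and acetyl-CoA. It stood at −0.14, 0.014, 0.0063 and −0.085 in S. mikatae, and at −1.01, −0.34 and −0.39 in S. paradoxus. Mating gave −0.020, 0.24 and −0.083, and S. cerevisiae alpha factor 0.33, 0.031 and 0.026. The S. paradoxus arrays were again the lowest, with replicate 1 far below the others, and the remaining groups lay around 0. The S. paradoxus mean of −0.58 ± 0.37 (n = 3; 1.49-fold lower; adjusted p = 0.000931 by limma) was smaller than the falls of PCK1 and ICL1. The means of S. mikatae (−0.052 ± 0.076), mating (0.046 ± 0.17) and S. cerevisiae (0.13 ± 0.17) were not called.

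Paralogs of these enzymes, whose RNA may reach the same probes, did not all follow. DAL7, a malate synthase used in allantoin breakdown, rose in S. mikatae by 0.23 ± 0.12 (n = 4; adjusted p = 0.0134) and fell in S. paradoxus by 0.59 ± 0.17 (n = 3; adjusted p = 6.43e-05). In mating it stood at −0.21 ± 0.13, with a call (adjusted p = 0.0492) that was lost without any of the 3 arrays, and the rise in S. mikatae was lost without replicate 4. In S. cerevisiae alpha factor it stood at 0.055 ± 0.083 (adjusted p = 0.626 by limma). The mitochondrial and peroxisomal malate dehydrogenases MDH1 and MDH3 rose in all 4 groups. MDH3 rose by 0.64 ± 0.14 in S. mikatae, 0.75 ± 0.16 in S. paradoxus, 0.46 ± 0.18 in mating and 0.36 ± 0.0032 in S. cerevisiae. MDH1 rose by 0.45 ± 0.077 in S. mikatae, 0.41 ± 0.072 in S. paradoxus, 0.30 ± 0.085 in mating and 0.28 ± 0.068 in S. cerevisiae. ICL2, a paralog of ICL1, gave no value in any group. Cross-hybridisation between MLS1 and DAL7 was not tested.

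ADH2 (YMR303C) encodes the glucose-repressed alcohol dehydrogenase that turns ethanol back into acetaldehyde. Its log2 ratio was 0.12, −0.27 and −0.069 in mating, against 0.48, 0.17 and 0.079 in S. cerevisiae given alpha factor. The arrays of the groups overlapped, and neither the mating mean of −0.074 ± 0.19 nor the S. cerevisiae mean of 0.24 ± 0.21 was called. ADH1, the close paralog that makes ethanol during fermentation, was at 0.059 ± 0.10 in mating (n = 3) and −0.085 ± 0.28 in S. cerevisiae (n = 2). Like ADH2 it had no value in S. mikatae or S. paradoxus, and RNA of ADH1 on the ADH2 probe was not tested for.

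The carriers differed from each other. JEN1 (YKL217W) encodes the plasma membrane permease for lactate and pyruvate. It was at 0.084, −0.083, 0.17 and 0.027 in S. mikatae and at 0.11, 0.072 and −0.035 in S. paradoxus. In mating it was at −0.71, −0.32 and −0.49, against 0.23, −0.099 and 0.00027 in S. cerevisiae given alpha factor. The mating arrays were all low and did not overlap with any other group. JEN1 fell in mating by 0.50 ± 0.20 (n = 3; 1.42-fold; adjusted p = 0.000425 by limma), while the alpha factor means of 0.049 ± 0.10 in S. mikatae, 0.050 ± 0.077 in S. paradoxus and 0.043 ± 0.17 in S. cerevisiae were not called. Its 95% interval in S. paradoxus, −0.13 to 0.23, excludes a fall of the size seen there for PCK1, ICL1 or MLS1. In mating both cell types gave RNA to both channels, so a fall in a cells and a fall in alpha cells could not be separated, nor fewer cells of a type from less RNA per cell.

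SFC1 (YJR095W) encodes the mitochondrial carrier that trades cytosolic succinate, a product of isocitrate lyase, for fumarate. It was at 0.11, 0.23 and 0.38 on the 3 S. mikatae arrays that measured it (replicates 1, 3 and 4) and at −0.86, −0.32 and 0.038 in S. paradoxus. Mating gave −0.032, −0.045 and 0.081, and S. cerevisiae alpha factor 0.45, 0.13 and 0.081. The S. paradoxus arrays spread widely, and replicate 3 was above 0. The mean fall of 0.38 ± 0.45 in S. paradoxus (n = 3; 1.30-fold; adjusted p = 0.0290 by limma) was no longer called without replicate 1, where it was 0.14 (adjusted p = 0.350), or without replicate 2 (0.41; adjusted p = 0.0697). It was also lost when the S. paradoxus arrays were fitted alone (adjusted p = 0.124). SFC1 stood at 0.24 ± 0.14 in S. mikatae, 0.0014 ± 0.069 in mating and 0.22 ± 0.20 in S. cerevisiae, with no call.

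The activators differed as well. ADR1 (YDR216W) encodes the zinc finger activator of ADH2 and of peroxisomal genes. It was at −0.49, −0.37, −0.80 and −0.58 in S. mikatae and at −0.80, −0.99 and −0.38 in S. paradoxus. Mating gave −0.24, −0.13 and −0.11, and S. cerevisiae alpha factor −0.015, −0.26 and −0.12. All 13 arrays were below 0, and those of S. mikatae and S. paradoxus lay below all arrays of S. cerevisiae. ADR1 fell in S. mikatae by 0.56 ± 0.18 (n = 4; 1.48-fold; adjusted p = 0.000189 by limma) and in S. paradoxus by 0.72 ± 0.31 (n = 3; 1.65-fold; adjusted p = 9.36e-05). It was at −0.16 ± 0.069 in mating (adjusted p = 0.252) and −0.13 ± 0.12 in S. cerevisiae (adjusted p = 0.354).

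CAT8 (YMR280C) encodes the zinc cluster activator known to bind the promoters of PCK1, FBP1, ICL1 and MLS1. It was at 0.058, −0.28, 0.023 and −0.0089 in S. mikatae, at 0.063, 0.033 and −0.22 in S. paradoxus, and at 0.15, −0.0066 and 0.083 in S. cerevisiae. The groups overlapped around 0. The S. paradoxus mean of −0.040 ± 0.15 had a 95% interval of −0.22 to 0.14 (n = 3; adjusted p = 0.720 by limma), and the means of S. mikatae (−0.052 ± 0.15) and S. cerevisiae (0.076 ± 0.079) were not called either.

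The responses were then set against each other, by a test of the difference itself. The alpha factor arrays of a species came from the same strain and its samples were processed side by side. Species, strain and processing therefore cannot be told apart, and the tests use the spread of arrays within a strain. In S. paradoxus minus S. cerevisiae 5 of 7 genes were lower, where 7.25% of all genes were called lower, and none was higher, where 9.07% were. The same 5 were lower on every S. paradoxus array than on any S. cerevisiae array, where 18.7% of all genes had arrays that did not overlap in that direction. The median difference of the 7 genes was −0.60, against −0.0098 for all 4718 genes tested. PCK1 differed by −1.75 (95% interval −2.20 to −1.31; 3.37-fold; adjusted p = 0.000389 by limma), rank 7 from the lowest of all. ICL1 differed by −1.49 (−1.87 to −1.11; adjusted p = 0.000187), rank 13, and MLS1 by −0.71 (−1.05 to −0.36; adjusted p = 0.00934), rank 109. SFC1 differed by −0.60 (upper bound of the interval −0.20; adjusted p = 0.0443) and ADR1 by −0.59 (−0.91 to −0.28; adjusted p = 0.0157). For JEN1 the difference was 0.0070 (−0.25 to 0.26) and for CAT8 −0.12 (−0.37 to 0.14), neither called.

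Of these 5 differences, those of PCK1, ICL1 and MLS1 were called whichever of the 6 arrays was left out. That of SFC1 was lost without any of 5 arrays (adjusted p 0.0647 to 0.149) and stayed without S. paradoxus replicate 3. That of ADR1 was lost without any of 4 (adjusted p 0.0509 to 0.0654). The count was 3 of 7 genes without S. paradoxus replicate 1, without S. paradoxus replicate 2, without S. cerevisiae replicate 1 or without S. cerevisiae replicate 3. S. cerevisiae replicate 1 was the highest of its group for 7 of the 8 genes measured on all 3 arrays. S. paradoxus replicate 1 was the lowest of its group for 4 of 7 such genes and replicate 3 the highest for 4. The SD of all log2 ratios was 0.518 on S. paradoxus replicate 1, 0.545 on replicate 2 and 0.498 on replicate 3.

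**Figure D2:**
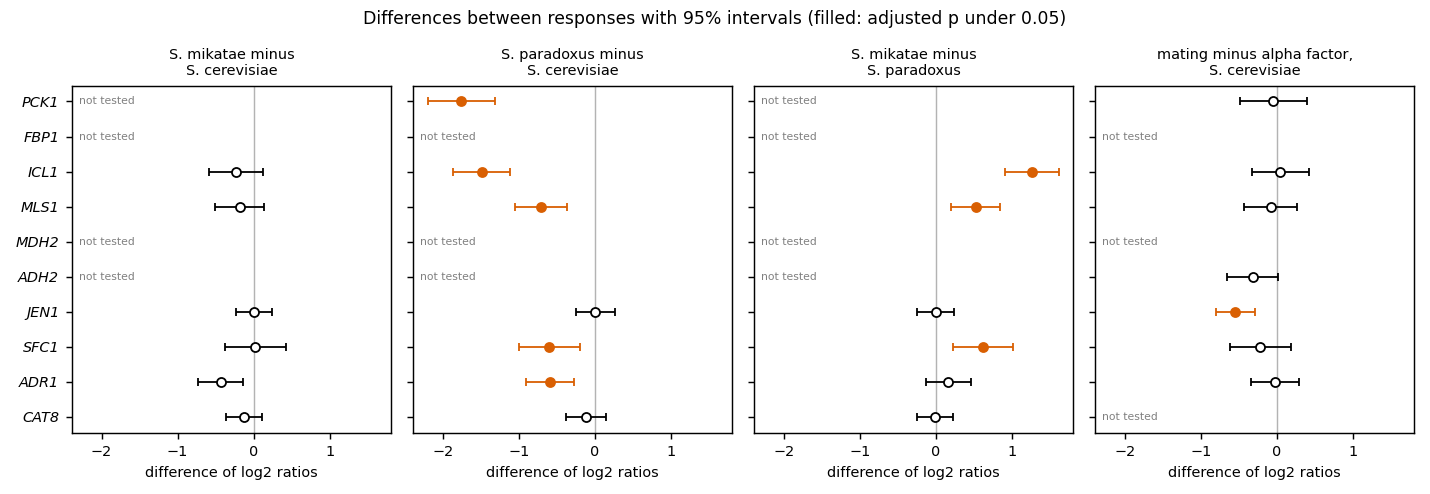
Difference of log2 ratios between groups (horizontal axis) with its 95% interval for each gene, filled where the adjusted p was under 0.05. S. paradoxus minus S. cerevisiae has 5 filled points below 0, S. mikatae minus S. cerevisiae has none, S. mikatae minus S. paradoxus has 3 above 0, and mating minus alpha factor has 1, JEN1 at −0.55.

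S. mikatae minus S. cerevisiae gave no call among 6 genes, where 11.9% of all genes were called in either direction by limma, and ADR1 alone had an unadjusted p under 0.05. ADR1 differed by −0.43 (95% interval −0.73 to −0.13; adjusted p = 0.0583 by limma), and without S. mikatae replicate 2 it was called (adjusted p = 0.0425). The arrays of the groups did not overlap for ICL1, MLS1 and ADR1, all lower in S. mikatae, where 12.5% of all genes did so. ICL1 differed by −0.23 (−0.58 to 0.13) and MLS1 by −0.18 (−0.50 to 0.14), while JEN1, SFC1 and CAT8 differed by 0.0053, 0.020 and −0.13.

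In S. mikatae minus S. paradoxus 3 of 6 genes were higher, where 6.04% of all genes were called higher. ICL1 differed by 1.26 (95% interval 0.91 to 1.62; 2.40-fold; adjusted p = 0.000232 by limma), rank 19 from the highest of 4090 genes. MLS1 differed by 0.53 (0.21 to 0.85; adjusted p = 0.0321) and SFC1 by 0.62 (0.22 to 1.02; adjusted p = 0.0424). Calls for MLS1 and SFC1 were both lost without S. paradoxus replicate 1, without S. mikatae replicate 3 or without S. mikatae replicate 4, leaving ICL1 alone. The SFC1 call was also lost without S. paradoxus replicate 2 or S. mikatae replicate 1, and the MLS1 call without S. mikatae replicate 2. ADR1, low in both species, differed by 0.16 (−0.14 to 0.46; adjusted p = 0.496), JEN1 by −0.0017 and CAT8 by −0.012. PCK1 could not be compared, since 1 S. mikatae array measured it.

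A test for any difference among the 3 species called 4 of 6 genes, where 23.9% of all genes were called. They were ICL1 (adjusted p = 0.000119 by limma), MLS1 (0.0130), ADR1 (0.0223) and SFC1 (0.0338). The count was 2 without S. paradoxus replicate 1 or without S. cerevisiae replicate 1, where ADR1 and SFC1 were lost. It was 3 without S. cerevisiae replicate 3, where ADR1 was lost, and without S. paradoxus replicate 2, S. mikatae replicate 3 or S. mikatae replicate 4, where SFC1 was lost.

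Mating was compared with alpha factor treatment in S. cerevisiae. The groups also differed in time, in filter against liquid culture, in the presence of alpha cells and in the kind of reference. The mating reference was the same cells kept apart, and the alpha factor reference was cells sampled before the addition. These differences cannot be told apart here. Of 7 genes 1 was lower, JEN1, by 0.55 (95% interval −0.80 to −0.29; adjusted p = 0.00831 by limma), where 7.37% of all genes were called lower. The arrays did not overlap for JEN1 and SFC1, both lower in mating, where 19.3% of all genes did so. SFC1 differed by −0.22 (−0.62 to 0.18) and ADH2 by −0.32 (−0.65 to 0.015; adjusted p = 0.176), neither called. PCK1, ICL1, MLS1 and ADR1 differed by −0.047, 0.047, −0.082 and −0.026.

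**Figure D3:**
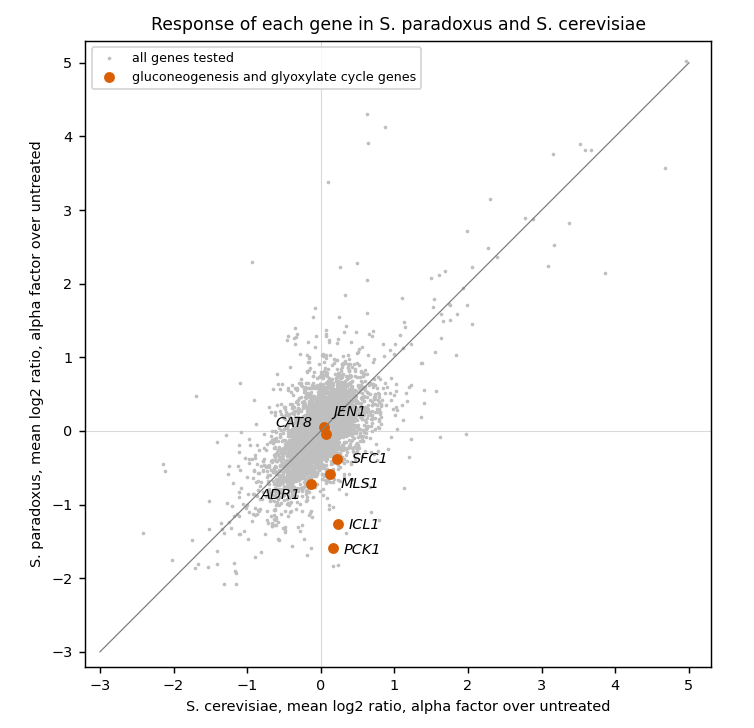
Mean log2 ratio in S. paradoxus (vertical axis) against S. cerevisiae (horizontal axis) for the 4718 genes with at least 2 arrays in each, with the line of equal response. PCK1 and ICL1 lie near 0 in S. cerevisiae and at −1.59 and −1.26 in S. paradoxus, at the lower edge of the cloud.

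Other genes of the pathway and its control came from lists written from general knowledge of the pathways. Of 16 acetyl-CoA and anaplerotic genes tested in S. paradoxus 5 rose and 5 fell, with a median of 0.095. Over all genes 23.9% were called higher there and 24.6% lower. The mitochondrial malic enzyme gene MAE1 fell by 1.37 ± 0.19 in S. mikatae, 1.41 ± 0.21 in S. paradoxus, 0.46 ± 0.19 in mating and 1.10 ± 0.29 in S. cerevisiae, called by limma in all 4. ALD6, the cytosolic acetaldehyde dehydrogenase, rose by 1.39 ± 0.30 in S. mikatae, 1.03 ± 0.078 in S. paradoxus, 0.51 ± 0.046 in mating and 1.84 ± 0.63 in S. cerevisiae. In mating the calls of MAE1 (without replicate 2) and of ALD6 (without any of the 3 replicates) were lost. In S. paradoxus minus S. cerevisiae 2 of 15 such genes were higher and 3 lower, with a median of −0.23, against 9.07% and 7.25% of all genes. CIT2, the peroxisomal citrate synthase that feeds the glyoxylate cycle, was higher there by 0.80 (0.59 ± 0.088 in S. paradoxus, −0.21 ± 0.16 in S. cerevisiae; adjusted p = 0.000978 by limma), opposite to ICL1 and MLS1. Unlike them, CIT2 was also called in S. mikatae minus S. cerevisiae, at 0.64 (adjusted p = 0.00241 by limma). In S. mikatae minus S. paradoxus it was not called (−0.16; adjusted p = 0.360). In S. paradoxus minus S. cerevisiae ALD6 was lower by 0.81 (adjusted p = 0.0375), DAL7 by 0.64 (adjusted p = 0.00256), and MDH3 was higher by 0.38 (adjusted p = 0.0428). The calls of CIT2 and DAL7 held whichever of the 6 arrays was left out. That of MDH3 was lost without any array except S. paradoxus replicate 3, and that of ALD6 without any except S. cerevisiae replicate 1.

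The list of glucose repression and Snf1 regulators had 3 of 18 genes higher and 1 lower in S. paradoxus, with a median of 0.048. The shares over all genes were 23.9% and 24.6%. HXK2, the hexokinase that takes part in glucose repression, rose by 0.51 ± 0.22 in S. mikatae and 0.66 ± 0.30 in S. paradoxus (adjusted p = 0.000682 by limma), and was at 0.29 ± 0.11 in S. cerevisiae (adjusted p = 0.0725). Its difference from S. cerevisiae was not called in S. paradoxus (0.37; adjusted p = 0.152 by limma) or in S. mikatae (0.22; adjusted p = 0.408). RDS2, an activator of gluconeogenic genes, fell in S. paradoxus by 0.27 ± 0.083 (adjusted p = 0.0114), which was lost without replicate 2 (adjusted p = 0.0764). In S. paradoxus minus S. cerevisiae 1 of 18 was higher and 1 lower, against 9.07% and 7.25% of all genes. TOS3, a kinase that activates Snf1, differed by 0.66 (0.17 ± 0.014 in S. paradoxus, −0.49 ± 0.11 in S. cerevisiae; adjusted p = 0.000551). Its rise in S. paradoxus (adjusted p = 0.0475 by limma) was lost without any of the S. paradoxus arrays. The repressor gene MIG2 differed by −0.66 (−0.18 ± 0.35 in S. paradoxus, 0.48 ± 0.20 in S. cerevisiae; adjusted p = 0.0300), a call lost without S. paradoxus replicate 1 or any S. cerevisiae array. S. mikatae minus S. cerevisiae gave 0.77 for TOS3 (adjusted p = 8.25e-05 by limma) and −0.60 for MIG2 (adjusted p = 0.0408, lost without any array except S. mikatae replicate 4). Neither was called in S. mikatae minus S. paradoxus.

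The GID ubiquitin ligase marks Fbp1 and Pck1 proteins for breakdown when glucose returns. Of 9 genes of that list 1 rose and 1 fell in S. paradoxus, with a median of −0.040, against 23.9% and 24.6% of all genes. VID24, whose product recognises the gluconeogenic enzymes, fell by 0.34 ± 0.21 in S. mikatae (n = 4; adjusted p = 0.00421) and by 0.69 ± 0.11 in S. paradoxus (n = 3; adjusted p = 9.70e-05 by limma). It was at 0.16 ± 0.10 in S. cerevisiae, and S. paradoxus differed from S. cerevisiae by −0.86 (adjusted p = 0.00152). S. mikatae minus S. cerevisiae gave −0.50 for VID24 (adjusted p = 0.0198 by limma). That call was lost without S. cerevisiae replicate 1 or 3 or S. mikatae replicate 1 or 4. S. mikatae minus S. paradoxus was not called for VID24 (0.35; adjusted p = 0.0766 by limma). UBC8, the conjugating enzyme of that breakdown, rose by 0.38 ± 0.12 in S. paradoxus, 0.27 ± 0.030 in mating and 0.30 ± 0.23 in S. cerevisiae, and was at 0.16 ± 0.19 in S. mikatae with no call. The mating call was lost without any of its 3 arrays, and the S. cerevisiae call without replicate 1 or replicate 3.

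Of 7 peroxisomal beta-oxidation genes known as Adr1 targets 1 rose and 2 fell in S. paradoxus, with a median of −0.19. Over all genes 23.9% were called higher there and 24.6% lower. FAA2, an acyl-CoA synthetase, fell by 0.45 ± 0.11 (adjusted p = 0.000853 by limma) and CTA1, catalase A, by 0.41 ± 0.30 (adjusted p = 0.00477). CTA1 also fell in S. cerevisiae, by 0.41 ± 0.063. FAA2 went the other way in mating, with a rise of 0.52 (adjusted p = 0.000413 by limma). In S. paradoxus minus S. cerevisiae limma called 0 of the 7, with POT1, FAA2 and TES1 under an unadjusted p of 0.05. Over all genes 9.07% were called higher in that comparison and 7.25% lower. The CTA1 fall in S. paradoxus was lost without replicate 2 (adjusted p = 0.0521). Of 5 alcohol dehydrogenases measured besides ADH2 1 rose and 2 fell in S. paradoxus, against 23.9% and 24.6% of all genes. SFA1, which oxidises formaldehyde bound to glutathione, rose by 1.03 ± 0.20, and ADH3, the mitochondrial isozyme, fell by 0.62 ± 0.20, beside a fall of 0.68 ± 0.28 in S. mikatae. In S. cerevisiae ADH3 was at −0.32 (adjusted p = 0.0732 by limma). Its S. paradoxus minus S. cerevisiae difference of −0.31 was not called (adjusted p = 0.275 by limma). SFA1 in S. paradoxus minus S. cerevisiae differed by 0.66 (adjusted p = 0.0360), a call lost without S. paradoxus replicate 1 or 2 or S. cerevisiae replicate 1 or 3. Glycolysis, which runs the other way, had 1 of 10 genes higher in S. paradoxus and none lower, against 23.9% and 24.6% of all genes. That was PGI1, phosphoglucose isomerase, which rose by 0.47 ± 0.28 and differed from S. cerevisiae by 0.52 (adjusted p = 0.0340), a call lost without S. paradoxus replicate 2 or S. cerevisiae replicate 1 or 3.

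**Figure D4:**
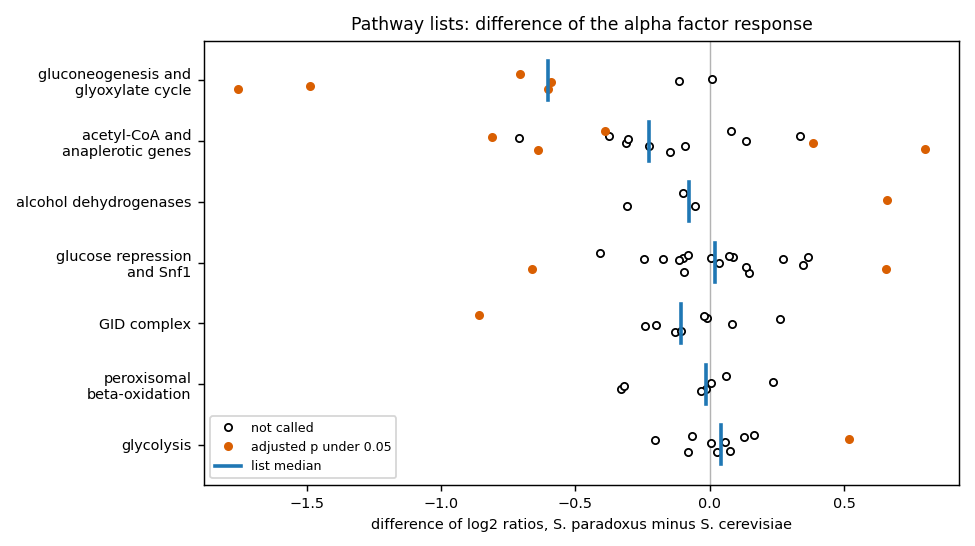
Difference of log2 ratios, S. paradoxus minus S. cerevisiae (horizontal axis), for each gene of 7 lists, filled where the adjusted p was under 0.05, with the list median as a vertical bar. The median of the gluconeogenesis and glyoxylate cycle genes is −0.60, and those of the other lists lie between −0.23 and 0.042.

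For the genes of the set measured on at least 10 arrays, the genes with the most similar profile were sought by Pearson correlation, among 2190 to 3517 genes measured on the same arrays. These correlations describe 10 to 13 arrays that fall into 4 groups, so differences between groups enter them. PCK1 was closest to MXR1 (r = 0.952), YNL134C (r = 0.945) and BUD22 (r = 0.944) over 10 arrays. ICL1 was closest to MXR1 (r = 0.927), DPH1 (r = 0.924) and VAM10 (r = 0.913) over 13. MLS1 was closest to APL5 (r = 0.919), HRT1 (r = 0.919) and MRPS16 (r = 0.893), and SFC1 to VTC1 (r = 0.881), DAL7 (r = 0.878) and GOT1 (r = 0.847) over 12. JEN1, with its fall in mating, was closest to IME4 (r = 0.932), MSH5 (r = 0.918) and YHR140W (r = 0.908). ADR1 was closest to SAS4 (r = 0.923), RSA4 (r = 0.897) and HMT1 (r = 0.895), and CAT8 to OST1 (r = 0.899), PFA4 (r = 0.897) and DFG5 (r = 0.896).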

How the data were processed

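The deposited table holds 1 ratio per ORF and array for 13 arrays, made by the authors and read here as log2 ratios, so fold changes rest on that base. Its log base, scanner, background correction, normalization and rule for missing values are not stated in the labels, and intensities were not used. Each array was centred on its median (deposited medians −0.00931 to 0.00805). The reference gene table of assembly R64 named 5622 ORFs, and its coordinates were not used. One limma fit (version 3.58.1, R 4.3.3) over all genes had a mean per group, which left 9 residual degrees of freedom for genes on all 13 arrays. The 95% intervals are those of that fit. Genes needed 2 measured arrays in each group compared, and p-values were adjusted by Benjamini-Hochberg over all genes tested. The members, lists and tests were chosen with earlier results of these data known. All 10 members were named. Of other lists, the 2 called genes with the largest change in S. paradoxus, or in its difference from S. cerevisiae, measured on every array, were named, with paralogs of members. The series' design text calls the samples of a species biological replicates, processed side by side. Sequences and promoter motifs were not analysed here. For genes missing on some arrays the test among 3 species is approximate. Alternatives were no centring, a common spread, only genes on all 13 arrays, at least 3 arrays per group, only the groups compared, array weights (limma with statmod 1.5.0), robust eBayes, a replicate block, and each array left out.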

Additional observations from a re-analysis of the deposited data

Results flagged for a closer look

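Several responses differed between groups by the test of the difference in limma. In S. paradoxus minus S. cerevisiae these were PCK1 at −1.75, ICL1 at −1.49, MLS1 at −0.71, SFC1 at −0.60 and ADR1 at −0.59. The paralogs DAL7 at −0.64 and MDH3 at 0.38 also differed. Of the pathway lists, ALD6 at −0.81, CIT2 at 0.80, SFA1 at 0.66, MIG2 at −0.66, TOS3 at 0.66, VID24 at −0.86 and PGI1 at 0.52 differed in the same comparison. CIT2, which supplies citrate to the glyoxylate cycle, moved against ICL1 and MLS1 there, and also differed by 0.64 in S. mikatae minus S. cerevisiae. In S. mikatae minus S. paradoxus ICL1 differed by 1.26, MLS1 by 0.53, SFC1 by 0.62 and DAL7 by 0.82. In mating minus alpha factor in S. cerevisiae JEN1 differed by −0.55. Among the 4 S. mikatae arrays, 1 lay far from the others for VID24, at −0.017 beside −0.46 for the lowest, with a gap of 0.957 of the whole range. The cut-off for such a gap, which this one exceeds, is passed by chance in about 1 of 20 groups. All members and named list genes with 4 S. mikatae values were searched, so a gap of this kind among them can arise by chance.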

How the results depend on the processing

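No call of a named gene changed direction under any alternative. Of 780 values of the members under alternatives, 736 stayed on the same side of the threshold, 39 lost a call and 5 gained one. The larger moves in counts of members called were these. With only genes on all 13 arrays, which leaves ICL1, MLS1, JEN1 and ADR1, 3 were called in S. paradoxus, 3 in S. paradoxus minus S. cerevisiae and 1 in S. mikatae minus S. cerevisiae. Array weights also gave 1 in S. mikatae minus S. cerevisiae. A common spread and a fit of only the groups compared each gave 2 in mating, where ICL1 was added, and 1 in S. mikatae minus S. paradoxus. Each also gave 4 in S. paradoxus minus S. cerevisiae and 3 among the species, where ADR1 was lost with a common spread (adjusted p = 0.0530 and 0.0565 by limma) and SFC1 with only the groups compared (adjusted p = 0.112 and 0.0616). With only the groups compared 5 were called in S. paradoxus, where SFC1 was lost, and at least 3 arrays per group also gave 5, since FBP1 was not tested. The filter to 13 arrays gave 2 in S. mikatae minus S. paradoxus and 3 among the species, where SFC1 was not tested. Leaving out each array in turn gave 4 to 5 members in S. paradoxus, 3 to 5 in S. paradoxus minus S. cerevisiae, 1 to 3 in S. mikatae minus S. paradoxus, 0 to 1 in S. mikatae minus S. cerevisiae and 2 to 4 among the species. It gave 1 throughout in S. mikatae, in mating and in mating minus alpha factor, and 0 in S. cerevisiae. Without S. cerevisiae replicate 1 or replicate 3, calls over all genes in S. paradoxus minus S. cerevisiae numbered 448 and 446, and without S. paradoxus replicate 1 475, against 770 with all arrays, while array weights gave 1204. Array weights also gave 856 against 517 in S. mikatae minus S. cerevisiae, 914 against 584 in mating minus alpha factor and 1517 against 978 among the species. Without S. cerevisiae replicate 1 or 3, S. mikatae minus S. cerevisiae had 309 calls in each case and mating minus alpha factor 367 and 294, which had 366 without mating replicate 2. Mating had 968 calls without its replicate 2, against 1469, and S. cerevisiae 1124 without its replicate 3, against 1946. Of the 2194 genes on all 13 arrays, 1245 were called in S. mikatae, 1193 in S. paradoxus, 936 in mating and 823 in S. cerevisiae. For the differences, 341 were called in S. mikatae minus S. cerevisiae and 421 in S. paradoxus minus S. cerevisiae. Without that filter 2095 of 4367 genes were called in S. mikatae and 770 of 4718 in S. paradoxus minus S. cerevisiae. The counts were lower because fewer genes were tested, while the share called was higher in each of these comparisons. The labels share replicate numbers, but 18 pairs of arrays with the same number had deviations correlated at −0.26 to 0.33, against −0.34 to 0.38 for 45 other pairs, so they were not treated as pairs. With the number as a replicate block, 5 of 7 members were called in S. paradoxus, 4 in S. paradoxus minus S. cerevisiae and 2 in S. mikatae minus S. paradoxus. The number of arrays and the missing values limit the precision.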
